A study of Mus musculus with 10 samples.

Results

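Ubiquitin ligase genes of 5 families were followed in microglia from adult mouse brain, from mixed glial *in vitro* cultures and from brain slices kept in culture over 1 day, 1 week or 3 weeks. Members were the genes of the count tables whose symbol starts with Trim, Rnf, Fbxo, Fbxl or Fbxw followed by a digit. This rule found 194 of 18292 listed genes, of which 52 were Trim, 76 Rnf, 36 Fbxo, 18 Fbxl and 12 Fbxw genes. The symbol alone chose them, and it also took in *Fbxl12os*, named for the opposite strand of *Fbxl12*, and *Rnf138rt1*, a retrotransposed copy. A filter on low counts left 151 for testing, 40 Trim, 61 Rnf, 27 Fbxo, 14 Fbxl and 9 Fbxw genes. The other 43 were too sparse to test, the most abundant being *Rnf17* with 74 UMIs (unique molecular identifiers, 1 per captured transcript) over all libraries. A gene high in 1 group alone could pass the filter through that group, so counts over the tested genes are descriptions of those genes.

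Ubiquitin is attached to proteins by a relay of an activating enzyme (E1), a conjugating enzyme (E2) and a ligase (E3), and the ligase picks the substrate. Trim proteins carry a tripartite motif of RING, B-box and coiled coil and are best known in antiviral defence. Rnf proteins share a RING finger, which recruits the E2, and otherwise range from endosomal membrane proteins to histone ligases. F-box proteins are the substrate receptors of the cullin-RING ligase SCF and are named for their substrate-binding repeats, leucine-rich in Fbxl, WD40 in Fbxw and other kinds in Fbxo. Marked proteins are degraded by the proteasome, sorted to the lysosome or altered in activity, and microglia use each of these routes.

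The cells were C57BL/6 throughout, sorted as live CD11b-positive cells with intermediate CD45. No group was given a stimulus, but human PDGF, a growth factor, was added to the slice medium and is not listed for the glial cultures. The slice and glial cultures also differed in serum and temperature. Adult microglia came straight from brain. *In vitro* microglia were collected from the medium of mixed glial cultures of newborn cortex after 3 weeks. Slice microglia came from coronal slices of newborn brain, and several slices were pooled where needed, so the cultured groups differ from adult in age of the donor as well as in culture. Each group had 2 libraries of 10x Genomics 3′ counts, with 68 to 3834 barcodes against an input of about 1000 cells stated in the labels. The study calls the samples of a group independent. Whether they came from separate animals or cultures is not given in the sources used here, and p-values measure only the spread between these libraries.

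After filtering, 61 to 3799 cells and 385373 to 39689540 UMIs per library remained, and 3 counts in a library were worth 0.0756 to 7.78 CPM (counts scaled to a common library total). The shallowest were the slice 1 week libraries, with 148 and 61 cells, where 3 counts were worth 2.78 and 7.78 CPM. Values well below these rest on fewer than 3 counts, also where every cultured library is set against adult. Adult cells held a median of 3257 and 1858 UMIs in their libraries and *in vitro* cells 12858 and 13966. All 12 microglia markers checked were detected in every library, but most were lower in culture than in adult, 9 called lower *in vitro*, 11 at slice 1 day, 10 at slice 1 week and 7 at slice 3 weeks, where 1 was called higher. *P2ry12* was at 6486 and 7398 CPM in adult and at 60.02 and 42.6 *in vitro*, and *Siglech* at 1169 and 885 in adult and 0.385 and 0.0561 *in vitro*. The part of this loss in the ligase changes was not tested. Neutrophil and monocyte markers stood apart. The 11 neutrophil markers together summed to 7386 and 21997 CPM at slice 1 day, 42912 and 1018 at slice 1 week, and 22.3 to 192 elsewhere, where *Csf3r* made up most of the sum and *Retnlg* and *Mpo* were at 0. The 6 monocyte markers summed to 148 and 358 CPM at slice 1 day, 913 and 0 at slice 1 week and at most 6.52 elsewhere. Cells with more UMIs over markers of other cell types than over microglia markers made up 14.3 and 15.0% of slice 1 day, 23.6 and 1.64% of slice 1 week and at most 0.52% of other libraries. Cells with 2 or more UMIs over 20 proliferation genes made up 8.28 and 12.5% of the adult libraries and 36.9 to 82.7% of the cultured ones, which also held more UMIs per cell. Leaving such cells out removes most cells of several cultured libraries. Whether a call lost that way reflects proliferation or lower counts was not tested. Hemoglobin genes summed to 1675 CPM in adult replicate 1 and 3321 in slice 1 day replicate 1 and to at most 1.03 elsewhere. Adult replicate 1 and slice 3 weeks replicate 1 carried another study label than the other 8 libraries. At most 21 cell barcodes were shared by any pair of libraries.

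The first question was whether ligase genes rose when microglia were cultured *in vitro*. Most did not. Of the 151 tested genes, 19 (12.6%) were up-regulated and 37 (24.5%) down-regulated in *in vitro* relative to adult microglia, at an edgeR false discovery rate below 0.05 and a fold change above 1.5. Over all 12157 genes tested the shares were 22.4% up and 28.5% down. The median log2 fold change was −0.15 for the ligase genes and −0.11 for all genes. Scaled by library size alone, 12 rose and 58 fell. By family, 7 of 40 Trim genes rose and 12 fell, 6 of 61 Rnf genes rose and 15 fell, 3 of 27 Fbxo genes rose and 4 fell, 1 of 14 Fbxl genes rose and 5 fell, and 2 of 9 Fbxw genes rose and 1 fell. These directions hold for levels relative to the other transcripts of the same library (TMM scaling). Counted as UMIs per cell, 133 of the 151 rose *in vitro* and 2 fell, with the median of all genes shifted by 2.15 on the log2 scale, so each change here is relative to that shift. Without cells holding 2 or more proliferation UMIs there were 12 rises and 26 falls, with 3 rises and 6 falls among Trim genes, and 35 of the 56 calls were shared. Without adult replicate 2 there were 12 rises, and there were 22 falls without adult replicate 1, 24 without *in vitro* replicate 1 and 21 without *in vitro* replicate 2.

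Against adult, fewer genes were called higher at slice 3 weeks than *in vitro*, a difference in counts that was not tested. Up-regulated were 11 of the 151 genes (7.28%, against 17.9% of all genes) and down-regulated 37 (24.5%, against 17.5%). The median was −0.23 on the log2 scale for the ligase genes and −0.03 for all genes. Scaled by library size alone, 7 rose and 49 fell. Trim genes accounted for 14 of the falls and Rnf genes for 15 (13 and 8 without cells holding 2 or more proliferation UMIs). Without adult replicate 2 there were 5 rises, without slice 3 weeks replicate 1 there were 18, and without adult replicate 1 there were 22 falls. At slice 1 week 8 genes rose and 26 fell, against 15% and 13.6% of all genes. This split was 11 and 13 with DESeq2, 6 and 39 by library size alone, and 4 and 7 without cells holding 2 or more proliferation UMIs, which kept 8 of the 34 calls. With slice 1 week replicate 1 left out, 4 genes were called at slice 1 week, each of them lower, and with replicate 2 left out 17 fell. Leaving out adult replicate 1 gave 10 falls and adult replicate 2 gave 5 rises and 17 falls, and 4 rises were left without either *in vitro* replicate and 17 falls without slice 1 day replicate 2. At slice 1 day 15 rose and 55 fell (9.93% and 36.4%, against 24.9% and 25.3% of all genes), with 21 of 40 Trim and 7 of 14 Fbxl genes among the falls. Rises numbered 9 without slice 1 day replicate 1, and falls 34 without slice 1 day replicate 2 and 35 without the proliferating cells, with 12 Trim and 3 Fbxl genes among the latter. These 4 comparisons share the adult libraries and are therefore not independent. As UMIs per cell, 71, 51 and 93 genes rose in the slice groups in the same order and at most 3 fell.

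**Figure D1:**
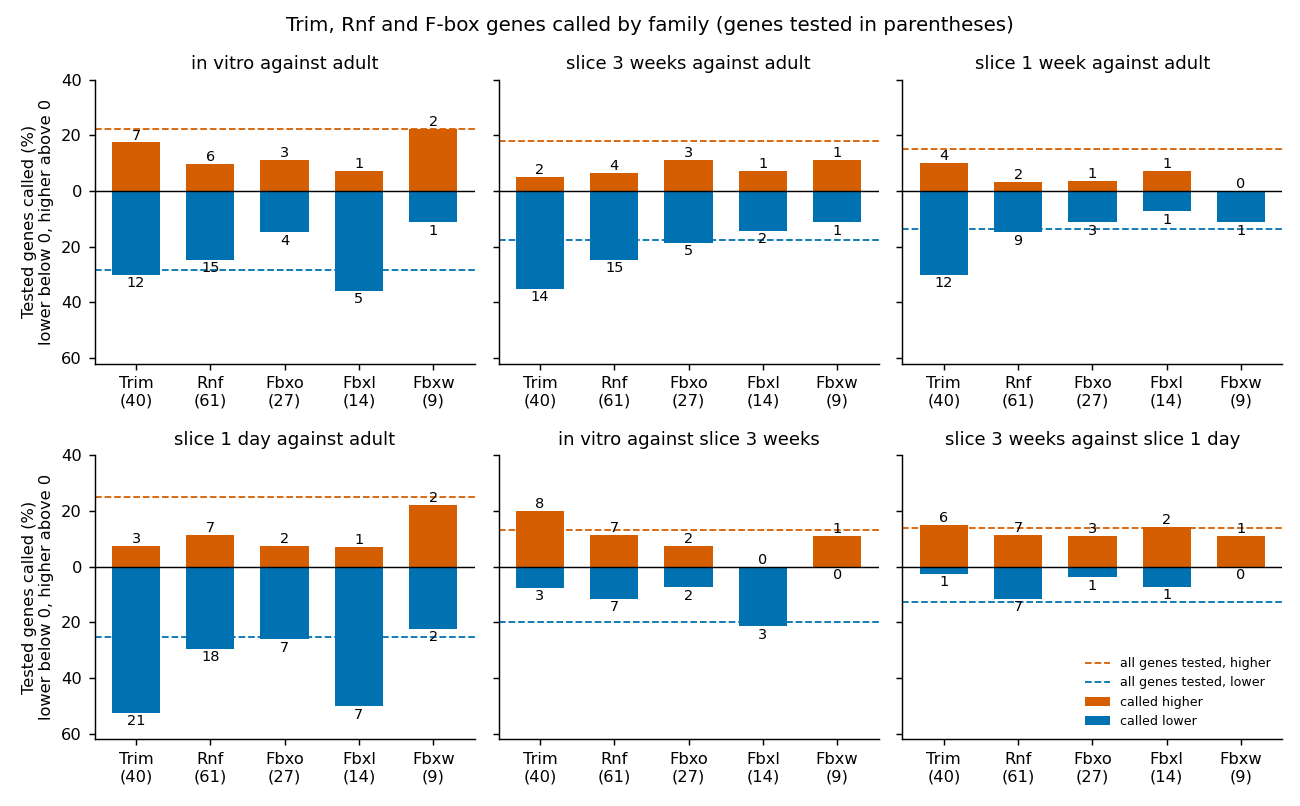
Percent of the tested genes of each family called higher (above 0) or lower (below 0) in each comparison, with the count on each bar and dashed lines for all genes tested. With TMM scaling Trim genes were called lower at 1 day in 21 of 40 cases, and *in vitro* against slice 3 weeks is the comparison with the most Trim genes called higher, 8 of 40. With UMIs per cell most calls, not plotted, are rises, except at slice 3 weeks against slice 1 day (2 higher, 11 lower).

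Direct comparison of *in vitro* with slice microglia at 3 weeks gave 18 genes higher (11.9%, against 13.3% of all genes) and 15 lower (9.93%, against 19.9%). Trim genes made up 8 of the higher ones. Scaled by library size alone the split was 13 and 21. Leaving out *in vitro* replicate 1 gave 11 higher and 6 lower, and leaving out replicate 2 gave 4 lower. From slice 1 day to slice 3 weeks 19 genes rose (12.6%, against 13.9%) and 10 fell (6.62%, against 12.8%). Without cells holding 2 or more proliferation UMIs, 7 genes were lower *in vitro* than at slice 3 weeks, and 7 rose and 6 fell from slice 1 day to slice 3 weeks. Without cells with more UMIs of other types than of microglia markers, 5 fell in the latter comparison. Without slice 1 day replicate 1 the rises and falls there were 12 and 5, and without replicate 2 they were 6 and 5. With UMIs per cell the 2 comparisons gave 100 and 1, and 2 and 11.

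Many proteasome and cytosolic chaperone genes rose in the same libraries. Of 31 proteasome subunit genes, 17 were called *in vitro*, all of them up-regulated (against 22.4% of all genes), with a median log2 fold change of 0.64 against −0.11 for all genes. Their summed level was 4027 and 4214 CPM in adult, 6280 and 6613 *in vitro*, and in slices 7723 and 8526 after 1 day, 5234 and 5184 after 1 week and 5326 and 4917 after 3 weeks. Both *in vitro* libraries and both slice 1 day libraries lay above every adult and slice 3 weeks library. At slice 1 day 26 of the 31 rose, against 24.9% of all genes, at slice 1 week 5, near the 15% of all genes, and at slice 3 weeks 6, near the 17.9%. *In vitro* against slice 3 weeks 3 of the 31 were called, each higher, against 13.3% of all genes. Their median log2 fold change there was 0.38, against −0.10 for all genes. Cytosolic heat shock genes, which encode chaperones for misfolded protein, rose in 12 and fell in 3 of 20 cases *in vitro* (against 22.4% and 28.5% of all genes), in 11 and 2 at slice 1 day (24.9% and 25.3%), in 4 and 2 at slice 1 week (15% and 13.6%), and in 8 and 1 at slice 3 weeks (17.9% and 17.5%). E1 and E2 enzyme genes rose in 10 and fell in 2 of 37 cases *in vitro*, and genes of the cullin-RING core rose in 6 and fell in 5 of 28, against 22.4% and 28.5% of all genes. Of 20 genes of the unfolded protein response of the endoplasmic reticulum (ER), 7 were called *in vitro*, each of them lower (against 28.5% of all genes), and 7 rose and 4 fell at slice 1 day (against 24.9% and 25.3%). The ligase families together summed to 4424 and 4422 CPM in adult, 3846 and 3710 *in vitro*, and in slices 3399 and 3281 after 1 day, 3655 and 3367 after 1 week and 3516 and 3558 after 3 weeks. Every cultured library was below both adult libraries. Abundant genes weigh most in such sums. The median log2 fold change of the ligase genes *in vitro* was −0.15, against −0.11 for all genes. At slice 1 day it was −0.34 against −0.06, at slice 1 week −0.27 against −0.08 and at slice 3 weeks −0.23 against −0.03. With UMIs per cell all 31 proteasome genes rose *in vitro*, beside 133 of the 151 ligase genes.

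**Figure D2:**
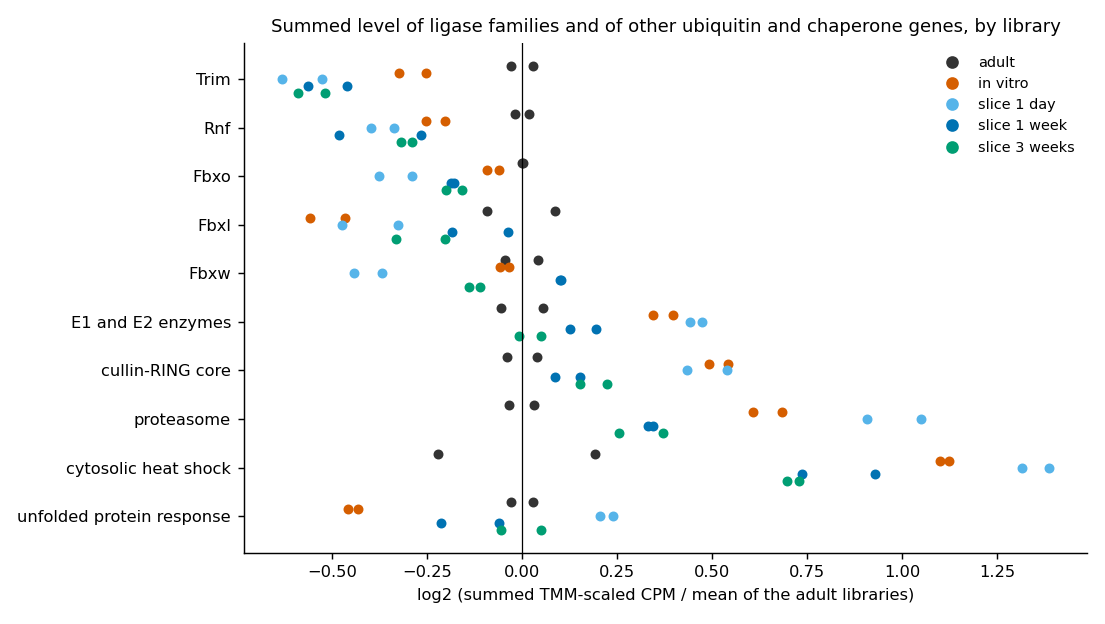
Summed TMM-scaled CPM of each ligase family and of 5 other gene lists in each library, as log2 ratio to the mean of the adult libraries. Each point is 1 library. The proteasome and heat shock points of both *in vitro* libraries lie right of every adult point and the Trim, Rnf and Fbxl points left of it, with 6280 and 6613 CPM of proteasome genes against 4027 and 4214 in adult. These sums are relative to the library and weighted by abundant genes, and with UMIs per cell 133 of the 151 ligase genes rose *in vitro*.

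Several antiviral and innate immune ligases were higher *in vitro* than in slice microglia at 3 weeks. Of 17 tested, 3 rose and 5 fell *in vitro*, shares near the 22.4% and 28.5% of all genes. At slice 3 weeks 8 were called, each of them lower, against 17.5% of all genes, and 1 rose and 11 fell at slice 1 day (7 fell without slice 1 day replicate 2), against 24.9% and 25.3% of all genes. Without cells with 2 or more proliferation UMIs, 2 rose and 6 fell at slice 1 day. At slice 1 week 1 rose and 7 fell, against 15% and 13.6% of all genes, with 0 and 1 called without slice 1 week replicate 1 or without those proliferating cells, 1 and 2 without adult replicate 1, and 1 and 4 with DESeq2. *In vitro* against slice 3 weeks edgeR called 7, all higher, against 13.3% of all genes, and the median of the 17 was 0.37 on the log2 scale against −0.10 for all genes. The 7 were *Rnf213*, *Trim25*, *Trim12c*, *Trim30a*, *Trim30c*, *Trim30d* and *Trim34a*. DESeq2 also called 7 higher and 0 lower, and at an unadjusted p below 0.05 edgeR had 7 higher and 1 lower. With each library left out in turn 5 to 8 were higher and 0 lower. With UMIs per cell all 17 were higher.

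*Rnf213*, a giant ATPase and RING ligase known from moyamoya disease and from defence against intracellular pathogens, was at 6.81 and 4.25 CPM in adult, 31.2 and 31.3 *in vitro*, and in slices 6.03 and 5.87 after 1 day, 6.92 and 10.2 after 1 week and 5.3 and 7.64 after 3 weeks. Only the *in vitro* libraries were high, and the other 8 lay between 4.25 and 10.2. The rise against adult was 2.46 on the log2 scale (SE 0.25, edgeR adjusted p = 1.7e-05) and against slice 3 weeks 2.23 on the log2 scale (SE 0.24, edgeR adjusted p = 7.92e-05). *Trim25*, which ubiquitylates the viral RNA sensor RIG-I, was at 6.45 and 6.05 CPM in adult, 18.3 and 21.3 *in vitro*, and in slices 13.1 and 9.89 after 1 day, 16.8 and 17.9 after 1 week and 5.56 and 8.24 after 3 weeks. It rose *in vitro* (log2 fold change 1.66, SE 0.23, edgeR adjusted p = 0.000159), and at slice 3 weeks the libraries overlapped adult (log2 fold change 0.18, SE 0.24, edgeR adjusted p = 0.6). *Trim25* was also high in both slice 1 week libraries (log2 fold change 1.45, SE 0.35, edgeR adjusted p = 0.0105). The call of *Trim25* at slice 1 week was lost without cells with 2 or more proliferation UMIs (1.41) or slice 1 week replicate 1 (1.54).

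*Trim30a*, a regulator of NF-κB signalling, was at 45.2 and 35.5 CPM in adult, 83.8 and 73 *in vitro*, and in slices 30.4 and 22.4 after 1 day, 19.8 and 33.3 after 1 week and 31.2 and 31.3 after 3 weeks. Both *in vitro* libraries exceeded every other, and the slice libraries lay below adult. The change was a rise *in vitro* (log2 fold change 0.95, SE 0.19, edgeR adjusted p = 0.00152) and a fall at slice 1 day (log2 fold change −0.64, SE 0.20, edgeR adjusted p = 0.0196). Several neighbours in the group of mouse Trim5-like genes, relatives of the retroviral restriction factor TRIM5, were called lower in slices. *Trim30d* was at 23.4 and 18.2 CPM in adult, 20.7 and 16.4 *in vitro*, and in slices 9.17 and 8.76 after 1 day, 10.9 and 5.12 after 1 week and 8.67 and 11.8 after 3 weeks, and it fell at slice 3 weeks (log2 fold change −1.01, SE 0.23, edgeR adjusted p = 0.00628). *Trim34a* was at 17.1 and 14.3 CPM in adult, 15.4 and 13.7 *in vitro*, and in slices 4.72 and 4.22 after 1 day, 6.92 and 5.12 after 1 week and 8.15 and 6.99 after 3 weeks, with both adult and both *in vitro* libraries above all 6 slice libraries. It fell at slice 1 day (log2 fold change −1.84, SE 0.23, edgeR adjusted p = 9.17e-05) and slice 3 weeks (log2 fold change −1.07, SE 0.20, edgeR adjusted p = 0.00204), while *in vitro* it overlapped adult (log2 fold change −0.12, SE 0.19, edgeR adjusted p = 0.619). *Trim5* was lowest at slice 1 day, with 4.72 and 3.92 CPM against 22.9 and 18.2 in adult (log2 fold change −2.29, SE 0.23, edgeR adjusted p = 2.41e-05). *Trim12a* was lower in all 8 cultured libraries than in adult, and *Trim12c* was at 23.8 and 20.7 CPM in adult, 26.7 and 25.2 *in vitro*, and in slices 12.6 and 7.42 after 1 day, 17.8 and 33.3 after 1 week and 12.7 and 16 after 3 weeks. *Trim12a* and *Trim12c*, *Trim30a* to *Trim30d*, and *Trim34a* and *Trim34b* are related copies. Reads can be lost or misassigned where copies are alike, which was not measured, so the values of single copies are uncertain. Leaving out cells with 2 or more proliferation UMIs (−0.18), adult replicate 1 (−0.41) or slice 1 day replicate 2 (−0.35) ended the call of *Trim30a* at slice 1 day. *Trim30a* at slice 1 day was also not called with the study label as covariate (−0.55). *Trim30d* at slice 3 weeks was no longer called without adult replicate 1 (−0.75).

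These genes lie side by side on chromosome 7, from *Trim6* at chr7:104218795-104235152 to *Trim30d* at chr7:104470014-104507853 (GRCm38.p6, RefSeq). The core of the element bound by interferon regulatory factors, GAAA and GAAA with any 2 bases between them, was searched on both strands of RefSeq promoters, 250 bases before to 50 after each start. It occurred in a promoter of 3.99% of the 27025 genes in the table and in 15 of the 115 tested ligase genes listed there. Of the 157 promoters of members, at 70 the start coincides with the first bases of a reference transcript of the gene, and the start of the others can differ from that of the transcripts counted. Of 16 antiviral ligases with a promoter, 8 held it, namely *Trim5*, *Trim12a*, *Trim12c*, *Trim30a*, *Trim30d*, *Trim34a*, *Trim21* and *Trim26*. In 5 of these genes the letters lie before the start given in the promoter table. An 80-base stretch before that start is shown for 4 of them, since they were among the members that fell in slices. That of *Trim5* lies within the RefSeq span of the gene and is not shown, and those of *Trim12c* and *Trim30d* overlap the 5′ end of their genes by a few bases. Capitals mark the match, on either strand and gap bases included, and each sequence runs 5′ to 3′ toward the start.
Trim12c (chr7:104353350-104353429, minus strand): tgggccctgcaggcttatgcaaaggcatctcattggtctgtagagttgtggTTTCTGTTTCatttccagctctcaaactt
Trim30a (chr7:104465194-104465273, minus strand): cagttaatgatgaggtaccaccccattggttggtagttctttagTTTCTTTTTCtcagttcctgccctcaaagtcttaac
Trim30d (chr7:104507850-104507929, minus strand): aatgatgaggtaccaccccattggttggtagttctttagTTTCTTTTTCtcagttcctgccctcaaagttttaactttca
Trim26 (chr17:36836957-36837036, plus strand): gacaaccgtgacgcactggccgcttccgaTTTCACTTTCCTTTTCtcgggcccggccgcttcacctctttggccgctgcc
*Trim30a* and *Trim30d* share an unbroken run of 69 bases of these stretches, and *Trim5* and *Trim12c* one of 53, so neither pair gives independent instances. A match is a description of letters and not a site of binding. *Trim26* holds the letters on chromosome 17, apart from the cluster, and it was lower in every cultured group than in adult. The heat shock element, searched on both strands as GAA, TTC and GAA with any 2 bases between neighbours, occurred in 0.66% of genes and in 0 of the 115. The antioxidant response element, TGAC and GC with any 3 bases between them, occurred in 13.99% of genes and in 17 of the 115.

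*Trim26*, a regulator of interferon regulatory factor 3, was at 83.6 and 87.7 CPM in adult, 36.2 and 31.5 *in vitro*, and in slices 38.3 and 36.1 after 1 day, 34.6 and 30.7 after 1 week and 41.3 and 41.8 after 3 weeks. All 8 cultured libraries lay below both adult libraries, and the fall *in vitro* was −1.34 on the log2 scale (SE 0.13, edgeR adjusted p = 9.77e-06). *Rnf135*, the RING ligase Riplet that activates RIG-I, was at 47 and 40.3 CPM in adult, 21.2 and 18.9 *in vitro*, and in slices 19.9 and 13 after 1 day, 18.8 and 10.2 after 1 week and 19 and 15.3 after 3 weeks. It too was lower in all cultured libraries, with a fall *in vitro* (log2 fold change −1.12, SE 0.21, edgeR adjusted p = 0.00113) and at slice 3 weeks (log2 fold change −1.36, SE 0.22, edgeR adjusted p = 0.000835). *Rnf31*, the catalytic subunit of the linear ubiquitin assembly complex, and *Rnf114* were called in none of the 6 comparisons. Beside these changes, other interferon-stimulated genes rose in 8 and fell in 1 of 19 cases *in vitro* (against 22.4% and 28.5% of all genes), rose in 2 and fell in 2 at slice 3 weeks (17.9% and 17.5%), rose in 1 and fell in 4 at slice 1 week (15% and 13.6%), and rose in 8 and fell in 2 at slice 1 day (24.9% and 25.3%). *In vitro* 13 of the 19 rose without cells holding 2 or more proliferation UMIs. Their part in the ligase changes was not tested.

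**Figure D3:**
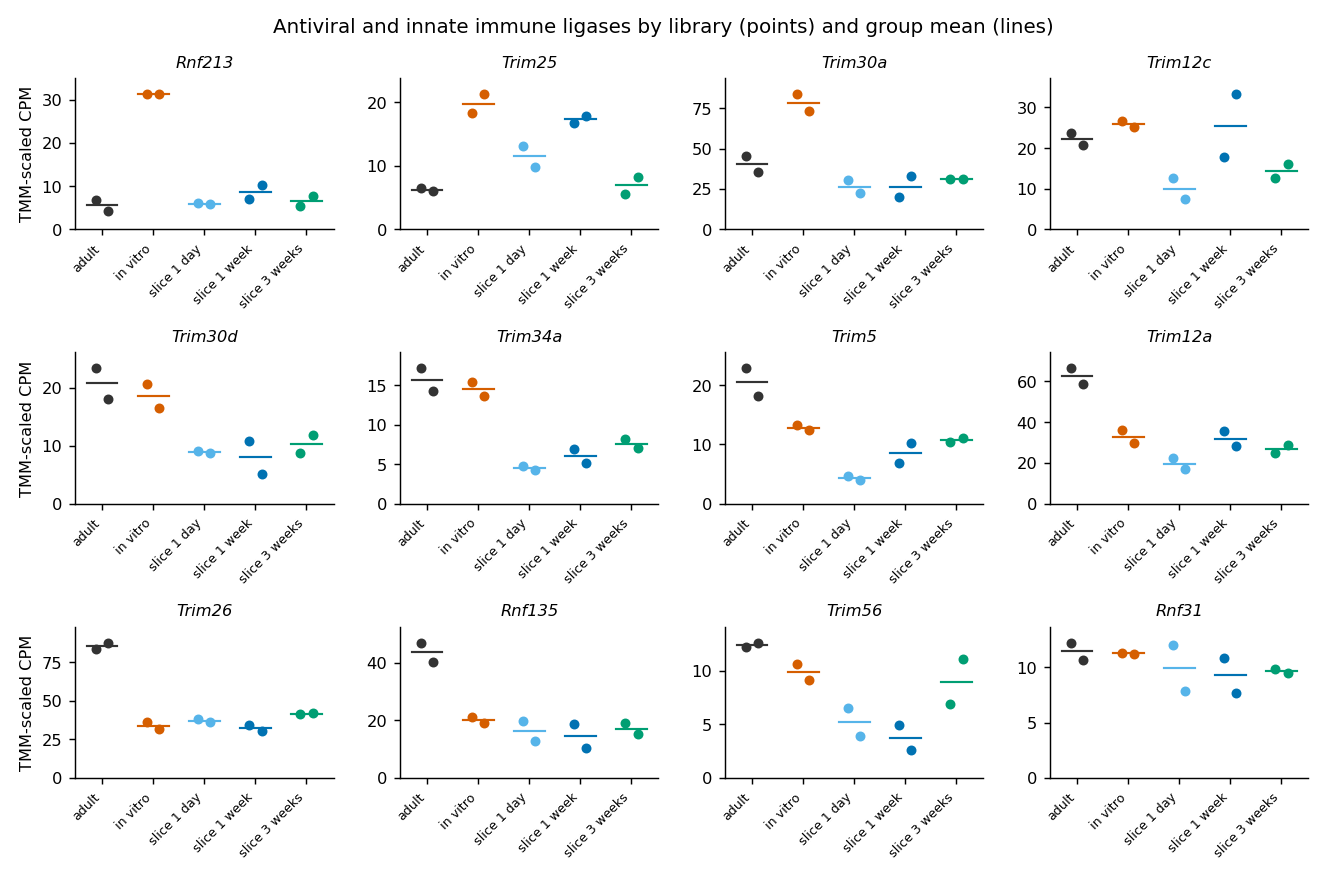
TMM-scaled CPM of 12 antiviral and innate immune ligases in each library (points) with group means (lines), each panel with its own axis from 0. *Rnf213* is high in the *in vitro* libraries alone (31.2 and 31.3 CPM), while *Trim26* and *Rnf135* are lower in every cultured library than in adult with this scaling, though not with UMIs per cell.

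Endosomal and membrane RING ligases moved in both directions. Of 8 tested, 1 rose and 3 fell *in vitro*, against 22.4% and 28.5% of all genes, and 1 rose and 4 fell at slice 3 weeks, against 17.9% and 17.5%. *Rnf13*, a ligase of endosomes and lysosomes, was at 416 and 456 CPM in adult, 169 and 142 *in vitro*, and in slices 129 and 113 after 1 day, 184 and 161 after 1 week and 259 and 251 after 3 weeks. The groups did not overlap with adult, and slice 3 weeks lay between adult and the other cultures. The fall was −1.49 on the log2 scale (SE 0.15, edgeR adjusted p = 1.7e-05) *in vitro* and −0.77 on the log2 scale (SE 0.15, edgeR adjusted p = 0.00233) at slice 3 weeks, and *in vitro* was lower than slice 3 weeks (log2 fold change −0.72, SE 0.15, edgeR adjusted p = 0.00388). *Rnf167*, a lysosomal and endosomal ligase of the same build, was at 152 and 171 CPM in adult, 35.1 and 35.2 *in vitro*, and in slices 55.6 and 44.4 after 1 day, 60.3 and 40.9 after 1 week and 57.3 and 54 after 3 weeks. All cultured libraries were far below adult, and the *in vitro* fall was −2.20 on the log2 scale (SE 0.17, edgeR adjusted p = 2.41e-06), though as UMIs per cell the value was −0.0035 and not called. *Rnf149* went the other way, at 60.8 and 66.7 CPM in adult, 117 and 118 *in vitro*, and in slices 167 and 133 after 1 day, 118 and 102 after 1 week and 92.5 and 93 after 3 weeks. Every cultured library was above adult, and it rose at slice 1 day (log2 fold change 1.23, SE 0.15, edgeR adjusted p = 7.85e-05) and *in vitro* (log2 fold change 0.88, SE 0.15, edgeR adjusted p = 0.000516). *Rnf128* (GRAIL), known from anergy of T cells, was at 23.2 and 33.5 CPM in adult, 28.1 and 39.6 *in vitro*, and in slices 66.3 and 60.2 after 1 day, 35.6 and 17.9 after 1 week and 68.9 and 74.6 after 3 weeks. Slice 1 day and slice 3 weeks were high, *in vitro* overlapped adult, and the rise at slice 3 weeks was 1.35 on the log2 scale (SE 0.23, edgeR adjusted p = 0.00113). *Rnf11*, a small RING protein of endosomes, was called in none of the comparisons. The call of *Rnf13* between *in vitro* and slice 3 weeks was lost without cells with 2 or more proliferation UMIs (−0.56) or *in vitro* replicate 2 (−0.52). *Rnf149* *in vitro* was not called with library size alone (0.58).

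*Rnf150*, a membrane RING ligase related to fly goliath, was at 8.35 and 7.34 CPM in adult, 44.5 and 41.2 *in vitro*, and in slices 3.15 and 3.81 after 1 day, 9.88 and 17.9 after 1 week and 8.93 and 7.55 after 3 weeks. The *in vitro* libraries stood above all others and the slice 1 day libraries below all others. It rose *in vitro* against adult (log2 fold change 2.44, SE 0.20, edgeR adjusted p = 3.95e-06) and slice 3 weeks (log2 fold change 2.39, SE 0.20, edgeR adjusted p = 1.31e-05) and fell at slice 1 day (log2 fold change −1.14, SE 0.24, edgeR adjusted p = 0.0027). *Rnf141* was highest *in vitro* too, at 9.01 and 7.21 CPM in adult, 27.9 and 23.7 *in vitro*, and in slices 8.13 and 9.38 after 1 day, 14.8 and 10.2 after 1 week and 8.15 and 10 after 3 weeks, with a rise (log2 fold change 1.66, SE 0.21, edgeR adjusted p = 7.17e-05). *Fbxw17* was at 6.89 and 7.47 CPM in adult, 29.8 and 30.6 *in vitro*, and in slices 11.5 and 15.2 after 1 day, 8.89 and 12.8 after 1 week and 11.9 and 11.8 after 3 weeks and rose *in vitro* (log2 fold change 2.08, SE 0.19, edgeR adjusted p = 7.88e-06) as well as against slice 3 weeks (log2 fold change 1.35, SE 0.18, edgeR adjusted p = 0.000273). Leaving out cells with 2 or more proliferation UMIs (−0.37) ended the call of *Rnf150* at slice 1 day.

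Protein quality control ligases, which mark misfolded or surplus proteins, were not called higher *in vitro*. Of 11 tested, edgeR called 0 higher and 3 lower, a share of falls near the 28.5% of all genes, with a median log2 fold change of −0.14 against −0.11 for all genes. At an unadjusted p below 0.05 the same test had 2 of them higher, and DESeq2 called 0 higher. Without cells with more UMIs of other types than of microglia markers, 1 of the 11, *Fbxo44*, was called higher. With UMIs per cell 10 of the 11 rose. The fallers were *Rnf103*, *Rnf139* and *Fbxo17*, the last not called without cells with 2 or more proliferation UMIs. *Rnf103*, an ER membrane ligase, was at 36.4 and 41.1 CPM in adult, 15 and 13.3 *in vitro*, and in slices 13.9 and 19.7 after 1 day, 16.8 and 33.3 after 1 week and 22.2 and 18.8 after 3 weeks. Every cultured library lay below adult, and the fall *in vitro* was −1.45 on the log2 scale (SE 0.22, edgeR adjusted p = 0.000238). *Rnf139* (TRC8), an ER ligase of sterol regulation, was at 32.6 and 30.8 CPM in adult, 17.3 and 16.9 *in vitro*, and in slices 12.3 and 14.9 after 1 day, 18.8 and 23 after 1 week and 21.1 and 16.3 after 3 weeks, with a fall *in vitro* (log2 fold change −0.89, SE 0.17, edgeR adjusted p = 0.00121) and at slice 3 weeks (log2 fold change −0.78, SE 0.17, edgeR adjusted p = 0.00547). *Rnf5*, an ER ligase of misfolded membrane proteins, was at 82.3 and 85.1 CPM in adult, 113 and 118 *in vitro*, and in slices 64 and 61.9 after 1 day, 79.1 and 69.1 after 1 week and 76.7 and 64.9 after 3 weeks. Both *in vitro* libraries exceeded all others, but the change against adult was below the fold threshold (log2 fold change 0.46, SE 0.13, edgeR adjusted p = 0.0125). It was called against slice 3 weeks (log2 fold change 0.71, SE 0.13, edgeR adjusted p = 0.00227). *Rnf126*, a cytosolic ligase that works with BAG6, was at 24 and 35.8 CPM in adult, 31.7 and 35.9 *in vitro*, and in slices 54 and 63.8 after 1 day, 52.4 and 30.7 after 1 week and 30.9 and 34.3 after 3 weeks. It was highest at slice 1 day (log2 fold change 0.99, SE 0.22, edgeR adjusted p = 0.0029), with adult and *in vitro* overlapping. *Rnf145* was called lower at slice 3 weeks and not *in vitro*, at 41.8 and 46.8 CPM in adult, 44.4 and 36.3 *in vitro* and 24.2 and 22.5 at slice 3 weeks (log2 fold change −0.93, SE 0.15, edgeR adjusted p = 0.000796). *Fbxo6*, which binds sugar chains of misfolded glycoproteins, was called lower at slice 1 week alone, a call lost without cells with more UMIs of other types than of microglia markers and without cells with 2 or more proliferation UMIs, and *Fbxo17* and *Fbxo44* reached at most 6.28 CPM in any library. *Rnf139* at slice 3 weeks was no longer called without adult replicate 1 (−0.68) or slice 3 weeks replicate 2 (−0.53). The change of *Rnf5* *in vitro* passed the threshold without *in vitro* replicate 1 (0.62) or slice 3 weeks replicate 1 (0.59). *Rnf5* *in vitro* also passed the threshold with no filter on low counts (0.63) or without cells with 3 or more UMIs over markers of other types (0.59).

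**Figure D4:**
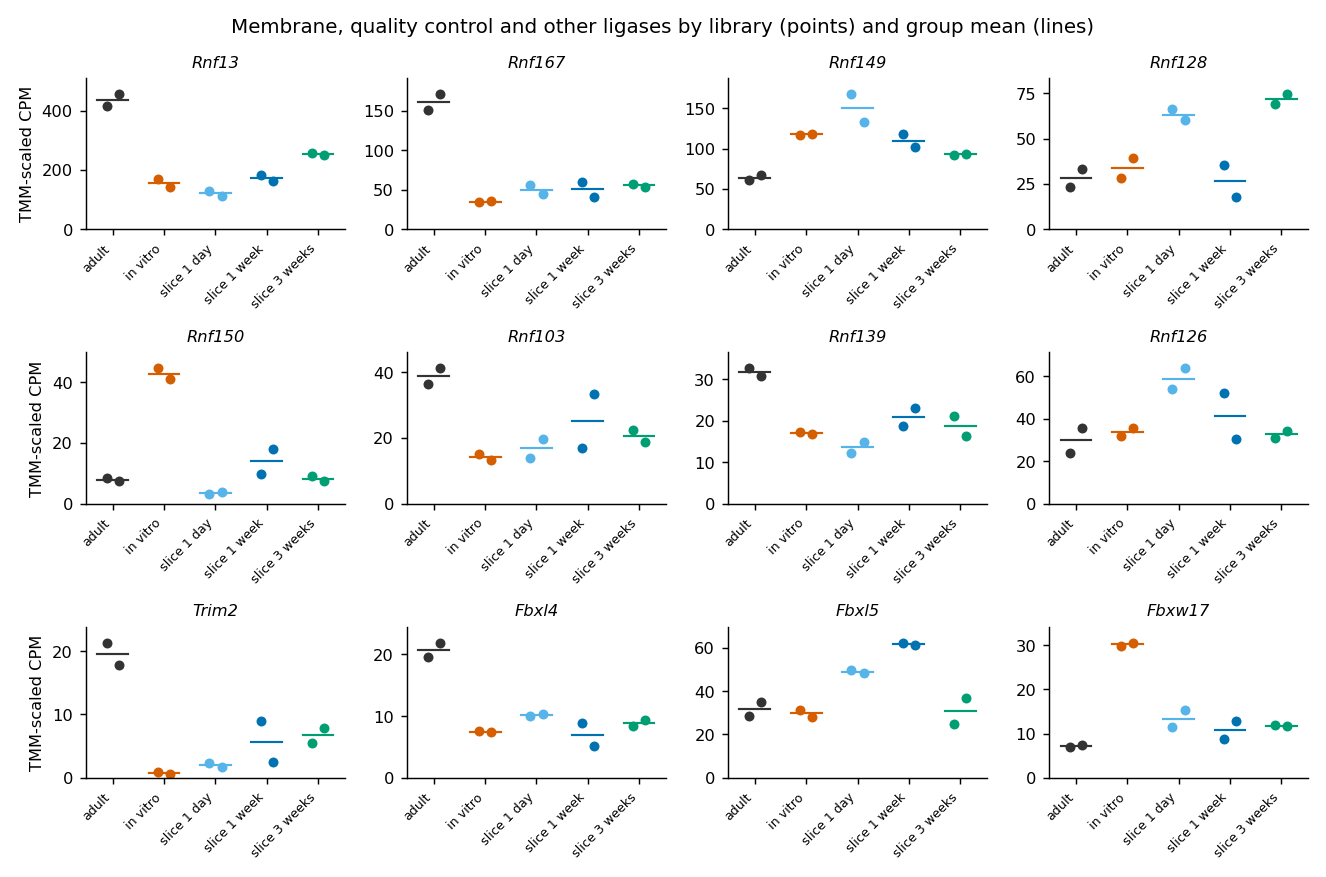
TMM-scaled CPM of membrane, quality control and other ligases in each library (points) with group means (lines), each panel with its own axis from 0. *Rnf13* and *Rnf167* are lower and *Rnf150* and *Fbxw17* higher in both *in vitro* libraries than in adult, where *Rnf13* is at 415.7 and 455.5 CPM. The falls are relative to the library, and as UMIs per cell *Rnf13* stood 0.70 higher *in vitro* on the log2 scale.

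Among cell cycle ligases *Trim59* and *Trim37* rose *in vitro*. Of 7 tested these 2 were called, a share near the 22.4% of all genes called higher, and 3 rose and 1 fell at slice 3 weeks, where 17.9% of all genes rose and 17.5% fell. Only *Trim59* was called in either comparison, as higher, without cells holding 2 or more proliferation UMIs. *Trim59* was at 1.1 and 0.515 CPM in adult, 7.03 and 10.4 *in vitro*, and in slices 4.46 and 6.49 after 1 day, 1.98 and 2.56 after 1 week and 13.5 and 10.9 after 3 weeks, with adult lowest and every cultured library above it, at slice 1 week on fewer than 3 counts in each library. It rose *in vitro* (log2 fold change 3.32, SE 0.38, edgeR adjusted p = 3.93e-05) and at slice 3 weeks (log2 fold change 3.79, SE 0.38, edgeR adjusted p = 5.53e-05). *Trim37*, a centrosomal ligase that limits centriole duplication, rose *in vitro* (log2 fold change 1.16, SE 0.39, edgeR adjusted p = 0.0277) from 2.49 and 2.32 to 4.75 and 6.06 CPM. *Fbxo5* (Emi1), an inhibitor of the anaphase-promoting complex, was at 5.2 and 5.28 CPM in adult, 5.49 and 4.71 *in vitro*, and in slices 7.86 and 17.4 after 1 day, 0.988 and 7.68 after 1 week and 20.4 and 8.43 after 3 weeks. Slice 3 weeks replicate 1 and slice 1 day replicate 2 were high and *in vitro* overlapped adult (log2 fold change −0.04, SE 0.47, edgeR adjusted p = 0.959). Its rise at slice 3 weeks was 1.42 on the log2 scale (SE 0.47, edgeR adjusted p = 0.0354). *Fbxw7*, the receptor for cyclin E and Myc, and *Fbxw11* were called in none of the comparisons. Proliferation genes moved alongside, with 17 of 20 up-regulated *in vitro* and 19 at slice 3 weeks, and their summed level was 209 and 247 CPM in adult against 651 to 1259.6 in the cultured libraries. The call of *Trim37* *in vitro* was lost without cells with 2 or more proliferation UMIs (0.78), adult replicate 1 (1.32), adult replicate 2 (1.11) or *in vitro* replicate 2 (1.10). *Trim37* *in vitro* was also not called with library size alone (0.86) or with the study label as covariate (0.81). Leaving out cells with 2 or more proliferation UMIs (−0.91), adult replicate 1 (1.46), adult replicate 2 (1.43) or slice 3 weeks replicate 1 (0.73) ended the call of *Fbxo5* at slice 3 weeks. *Fbxo5* at slice 3 weeks was also not called with library size alone (1.22).

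Ligases of metabolism and mitochondria were called lower where they were called in 3-week cultures, 2 of 7 *in vitro* and 3 of 7 at slice 3 weeks. The first share is that of all genes (28.5%), and at slice 3 weeks 17.5% of all genes were lower. With DESeq2, or without cells with more UMIs of other types than of microglia markers, 1 of the 7 was lower at slice 3 weeks. At slice 1 day 1 rose and 4 fell, against 24.9% and 25.3% of all genes. There 0 rose and 4 fell without those cells of other types, and 1 and 3 without cells holding 2 or more proliferation UMIs. *Fbxl4*, a mitochondrial F-box protein that restrains mitophagy, was at 19.6 and 21.9 CPM in adult, 7.55 and 7.35 *in vitro*, and in slices 9.96 and 10.3 after 1 day, 8.89 and 5.12 after 1 week and 8.41 and 9.41 after 3 weeks. Every cultured library was below adult, with a fall *in vitro* (log2 fold change −1.47, SE 0.18, edgeR adjusted p = 7.5e-05). *Fbxo32* (atrogin-1), the muscle atrophy F-box protein, fell *in vitro* (log2 fold change −0.91, SE 0.27, edgeR adjusted p = 0.0153) from 11.7 and 12.8 to 6.01 and 6.93 CPM. *Fbxl5*, the iron-sensing receptor for iron regulatory protein 2, was at 28.4 and 34.8 CPM in adult, 31.2 and 28.2 *in vitro*, and in slices 49.5 and 48.1 after 1 day, 62.3 and 61.4 after 1 week and 24.8 and 36.6 after 3 weeks. It was high at slice 1 week (log2 fold change 0.98, SE 0.23, edgeR adjusted p = 0.00886) and slice 1 day (log2 fold change 0.63, SE 0.19, edgeR adjusted p = 0.0154) and overlapped adult in both 3-week cultures. *Rnf41* and *Fbxo30* were called in none of the comparisons. *Fbxo32* *in vitro* was no longer called without cells with 2 or more proliferation UMIs (−0.52), adult replicate 1 (−0.88), adult replicate 2 (−0.86), *in vitro* replicate 1 (−0.69) or *in vitro* replicate 2 (−0.90). The call of *Fbxl5* at slice 1 week was lost without slice 1 week replicate 1 (0.99). Leaving out cells with more UMIs of other types than of microglia markers (0.25), adult replicate 1 (0.53) or slice 1 day replicate 1 (0.61) ended the call of *Fbxl5* at slice 1 day. *Fbxl5* at slice 1 day was also not called with library size alone (0.51) or with the study label as covariate (0.42).

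Of 12 chromatin and DNA damage ligases tested, 1 rose and 2 fell *in vitro*, against 22.4% and 28.5% of all genes, and 2 rose and 1 fell at slice 3 weeks, against 17.9% and 17.5%. *Rnf20*, which ubiquitylates histone H2B together with *Rnf40*, was at 13.6 and 13 CPM in adult, 19.9 and 20.9 *in vitro*, and in slices 19.7 and 22.5 after 1 day, 16.8 and 12.8 after 1 week and 16.6 and 26.5 after 3 weeks. It rose *in vitro* (log2 fold change 0.62, SE 0.21, edgeR adjusted p = 0.03). Both *in vitro* and both slice 1 day libraries were above adult. *Trim24*, a transcriptional cofactor, was at 12.1 and 11.3 CPM in adult, 6.62 and 5.05 *in vitro*, and in slices 4.46 and 4.43 after 1 day, 14.8 and 12.8 after 1 week and 8.67 and 16.5 after 3 weeks. It was low *in vitro* (log2 fold change −1.01, SE 0.28, edgeR adjusted p = 0.0117) and at slice 1 day, and slice 3 weeks overlapped adult. Its relatives *Trim28*, a corepressor of transposons, and *Trim33* were not called *in vitro*. *Rnf2*, the catalytic subunit of Polycomb repressive complex 1, was at 54.1 and 56.7 CPM in adult, 40.6 and 34.3 *in vitro*, and in slices 46.4 and 45.5 after 1 day, 56.3 and 35.8 after 1 week and 34.7 and 38.7 after 3 weeks. Its difference *in vitro* was just below the fold threshold (log2 fold change −0.57, SE 0.16, edgeR adjusted p = 0.0102). *Rnf20* *in vitro* was no longer called without cells with 2 or more proliferation UMIs (0.57), adult replicate 1 (0.75), adult replicate 2 (0.59) or *in vitro* replicate 2 (0.71). *Rnf20* *in vitro* was also not called with library size alone (0.31) or with the study label as covariate (0.43). The call of *Trim24* *in vitro* was lost without cells with 2 or more proliferation UMIs (−0.65), adult replicate 1 (−0.86) or *in vitro* replicate 2 (−0.70). *Rnf2* *in vitro* passed the threshold with library size alone (−0.87) or with the study label as covariate (−0.62).

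**Figure D5:**
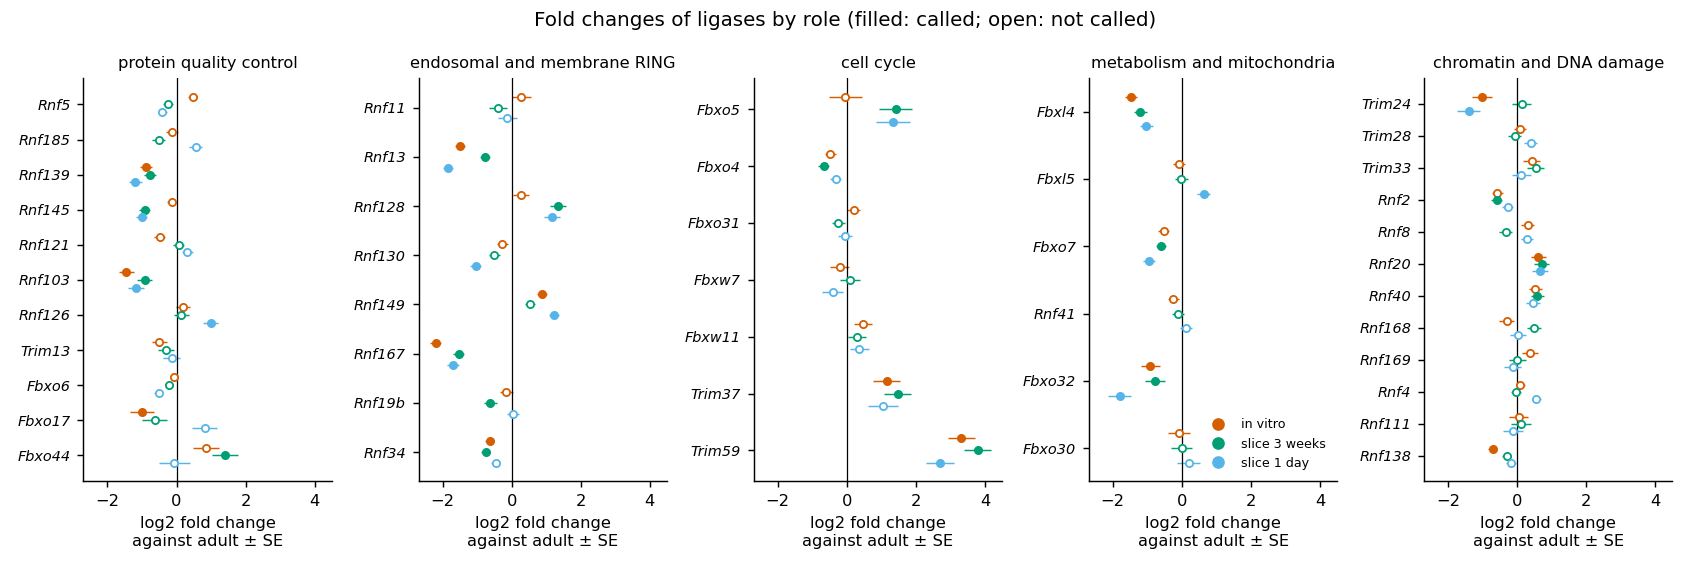
TMM-scaled log2 fold change against adult with its standard error for all but 1 of the tested members of 5 role lists, in *in vitro*, slice 3 weeks and slice 1 day microglia. Filled points are called and open points are not. *Rnf139* and *Rnf103* are called lower in all 3 cultures, and no quality control ligase is called higher *in vitro*. With UMIs per cell 10 of the 11 quality control ligases rise *in vitro*.

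Outside these lists, the deepest falls *in vitro* of genes averaging at least 2 in log2 CPM were in *Trim2* and *Rnf180*. *Trim2*, which ubiquitylates neurofilament light chain, was at 21.3 and 17.8 CPM in adult, 0.931 and 0.561 *in vitro*, and in slices 2.36 and 1.75 after 1 day, 8.89 and 2.56 after 1 week and 5.56 and 7.87 after 3 weeks. All cultured libraries were below adult and the *in vitro* libraries lowest. The fall was −4.71 on the log2 scale (SE 0.35, edgeR adjusted p = 1.91e-06) *in vitro* and −1.51 on the log2 scale (SE 0.30, edgeR adjusted p = 0.00258) at slice 3 weeks, and *in vitro* was lower than slice 3 weeks (log2 fold change −3.20, SE 0.34, edgeR adjusted p = 7.5e-05). *Rnf180* was at 11.6 and 12.1 CPM in adult, 1.54 and 0.954 *in vitro*, and in slices 3.67 and 3.3 after 1 day, 10.9 and 7.68 after 1 week and 6.21 and 5.17 after 3 weeks, with *in vitro* lowest and a fall *in vitro* (log2 fold change −3.25, SE 0.29, edgeR adjusted p = 6.89e-06). *Fbxl12* was at 26.2 and 27.7 CPM in adult, 8.03 and 8.64 *in vitro*, and in slices 10.2 and 8.14 after 1 day, 15.8 and 7.68 after 1 week and 11.3 and 18.3 after 3 weeks and fell *in vitro* (log2 fold change −1.69, SE 0.24, edgeR adjusted p = 0.000195). *Rnf215* was at 47.9 and 43.7 CPM in adult, 13.4 and 12.2 *in vitro*, and in slices 20.4 and 23.4 after 1 day, 30.6 and 28.1 after 1 week and 31 and 25.7 after 3 weeks, below adult in every cultured library and lowest *in vitro* (log2 fold change −1.84, SE 0.15, edgeR adjusted p = 4.71e-06).

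F-box genes, which encode the substrate receptors of SCF, were called in both directions. None of the 7 Fbxo genes called *in vitro* changed by more than 1.03 on the log2 scale. *Fbxo46* was at 11.1 and 11.8 CPM in adult, 5.56 and 5.67 *in vitro*, and in slices 4.46 and 6.08 after 1 day, 11.9 and 5.12 after 1 week and 6.08 and 5.82 after 3 weeks. Adult was highest apart from 1 slice 1 week library, and *Fbxo46* fell *in vitro* (log2 fold change −1.03, SE 0.23, edgeR adjusted p = 0.00352) and at slice 1 day (log2 fold change −1.08, SE 0.26, edgeR adjusted p = 0.00556). *Fbxo25* was at 15 and 17.1 CPM in adult, 7.68 and 8.64 *in vitro*, and in slices 5.24 and 6.39 after 1 day, 11.9 and 5.12 after 1 week and 9.18 and 7.92 after 3 weeks. All cultured libraries lay below adult, with a fall at slice 1 day (log2 fold change −1.43, SE 0.25, edgeR adjusted p = 0.000732). The *in vitro* rises were those of *Fbxo45* (log2 fold change 1.01), *Fbxo42* and *Fbxo21* (0.80). That of *Fbxo45* was not called without cells with 2 or more proliferation UMIs. *Fbxo42*, which targets p53, was at 6.3 and 6.18 CPM in adult, 12.7 and 10.2 *in vitro*, and in slices 5.24 and 7.73 after 1 day, 9.88 and 7.68 after 1 week and 7.11 and 7.08 after 3 weeks and rose *in vitro* (log2 fold change 0.87, SE 0.23, edgeR adjusted p = 0.00839). Among Fbxl genes *Fbxl20*, a synaptic F-box protein, was at 24.5 and 19.6 CPM in adult, 11.9 and 11.9 *in vitro*, and in slices 12.1 and 9.68 after 1 day, 14.8 and 7.68 after 1 week and 19.1 and 18.7 after 3 weeks. Both *in vitro* and both slice 1 day libraries were below adult and slice 3 weeks, and it was called lower *in vitro* (log2 fold change −0.90, SE 0.19, edgeR adjusted p = 0.00255). *Fbxl8* rose *in vitro* (log2 fold change 1.19, SE 0.24, edgeR adjusted p = 0.00151) from 6.01 and 4.51 to 11.7 and 12.7 CPM. Among Fbxw genes *Fbxw8*, the receptor of the CUL7 complex, was at 7.54 and 3.99 CPM in adult, 9.76 and 11 *in vitro*, and in slices 11.8 and 9.79 after 1 day, 4.94 and 2.56 after 1 week and 7.37 and 7.78 after 3 weeks, with adult overlapped by slice 3 weeks. Leaving out *in vitro* replicate 1 (−0.89) or *in vitro* replicate 2 (−0.92) ended the call of *Fbxo46* *in vitro*. *Fbxo46* at slice 1 day was no longer called without cells with 2 or more proliferation UMIs (−0.83). The call of *Fbxo25* at slice 1 day was lost without cells with 2 or more proliferation UMIs (−1.07). Leaving out *in vitro* replicate 1 (0.83) ended the call of *Fbxo42* *in vitro*. *Fbxo42* *in vitro* was also not called with library size alone (0.57). *Fbxl20* *in vitro* was no longer called without adult replicate 1 (−0.62).

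Further Trim and Rnf genes fell in slices. *Trim47* was at 71.6 and 90.3 CPM in adult, 57.9 and 63.3 *in vitro*, and in slices 52.7 and 39.8 after 1 day, 46.4 and 38.4 after 1 week and 41.7 and 24.1 after 3 weeks. Every cultured library was below adult and the fall at slice 3 weeks was −1.32 on the log2 scale (SE 0.24, edgeR adjusted p = 0.00185), and *in vitro* was higher than slice 3 weeks (log2 fold change 0.90, SE 0.24, edgeR adjusted p = 0.0137). *Trim65*, a ligase of the RNA sensor MDA5, was at 20.5 and 16.5 CPM in adult, 12 and 10.8 *in vitro*, and in slices 6.81 and 4.84 after 1 day, 6.92 and 0 after 1 week and 7.76 and 5.26 after 3 weeks and fell at slice 1 day (log2 fold change −1.72, SE 0.34, edgeR adjusted p = 0.0017) and slice 3 weeks (log2 fold change −1.55, SE 0.32, edgeR adjusted p = 0.00321). *Trim30b*, one of the related copies, was at 5.57 and 3.74 CPM in adult, 1.32 and 1.04 *in vitro*, and in slices 9.96 and 7.93 after 1 day, 6.92 and 0 after 1 week and 1.03 and 0.838 after 3 weeks. It stood out in the slice 1 day libraries, which held the neutrophil and monocyte markers as well, and it was lower at slice 3 weeks than at slice 1 day (log2 fold change −3.27, SE 0.48, edgeR adjusted p = 0.00103). That call was kept without cells with more UMIs of other types than of microglia markers, and its cell source was not tested. *Rnf130* (goliath), a membrane ligase, was at 259.8 and 272 CPM in adult, 235 and 207 *in vitro*, and in slices 132 and 127 after 1 day, 232 and 177 after 1 week and 178 and 197 after 3 weeks, lowest at slice 1 day (log2 fold change −1.04, SE 0.16, edgeR adjusted p = 0.000313). In all, 43 of the 151 tested genes were called in none of the 6 comparisons, 19 of them Rnf, 8 Trim, 8 Fbxo, 4 Fbxl and 4 Fbxw genes. The call of *Trim47* between *in vitro* and slice 3 weeks was lost without *in vitro* replicate 2 (0.91). Without slice 3 weeks replicate 1 (1.41) the value of *Trim47* between *in vitro* and slice 3 weeks moved by over 1.5 times.

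Several members were at their lowest or highest at slice 1 day, which was not tested against slice 1 week. *Rnf144b*, a RING-between-RING ligase, was at 10.3 and 8.76 CPM in adult, 4.59 and 6.68 *in vitro*, and in slices 1.83 and 2.16 after 1 day, 3.95 and 2.56 after 1 week and 6.6 and 8.01 after 3 weeks. It was lowest at 1 day (log2 fold change −2.22, SE 0.32, edgeR adjusted p = 0.000249) and was not called at 3 weeks (log2 fold change −0.38, SE 0.26, edgeR adjusted p = 0.276). *Fbxw4* was at 68.3 and 46.1 CPM in adult, 44.4 and 42.3 *in vitro*, and in slices 25.4 and 21.6 after 1 day, 78.1 and 92.1 after 1 week and 51.7 and 41.5 after 3 weeks, with the slice 1 day libraries below all others (log2 fold change −1.30, SE 0.20, edgeR adjusted p = 0.000405). *Rnf216*, a RING-between-RING ligase of Toll-like receptor signalling, was at 43.9 and 43.8 CPM in adult, 22.5 and 20.5 *in vitro*, and in slices 13.4 and 14.9 after 1 day, 30.6 and 28.1 after 1 week and 21.3 and 36.2 after 3 weeks and fell at 1 day (log2 fold change −1.62, SE 0.23, edgeR adjusted p = 0.000217). *Rnf144a* had 29 UMIs at slice 1 day, 1 at slice 1 week and 0 in adult, *in vitro* and slice 3 weeks libraries, which makes it at least 14.1-fold higher at 1 day than in adult, against a floor of 3 counts over the adult libraries. The neutrophil markers stood high in the same libraries, at 7386 and 21997 CPM, and *Rnf144a* was no longer called without the cells that held more UMIs over markers of other cell types than over microglia markers. Without those cells 16 ligase genes rose and 51 fell at slice 1 day, against 15 and 55 with them, and 64 of the 70 calls were shared. *Fbxl5* was among the 6 lost at 1 day. At slice 1 week 9 rose and 22 fell without them, against 8 and 26.

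Slice 1 week rested on few cells. *Rnf157* was at 0 in both slice 1 week libraries against 127 UMIs in adult, at least 3.23-fold lower at the floor of 3 counts over the group, and *Trim30c* and *Trim68* were at 0 there too, at least 1.53-fold and 1.78-fold lower. The calls of all 3 were lost without cells with 2 or more proliferation UMIs, and that of *Trim30c* also without cells with more UMIs of other types than of microglia markers. At the other end, *Rnf217* had 1 UMI in the adult libraries and 108 *in vitro*, and *Trim55* and *Trim6* had 3 in adult and 93 and 79 *in vitro*. The calls of these 3 *in vitro* were lost without the proliferating cells. For these the sizes of the fitted fold changes are not given.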

How the data were processed

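Microglia of 5 groups, with 2 libraries each, were profiled by 10x Genomics 3′ RNA sequencing. The authors deposited UMI counts per gene and cell, made with Cell Ranger 1.3.0 on mm10 per the submitters' processing notes. Cells were kept with at most 5% mitochondrial UMIs, at least 400 genes and at most 30000 UMIs, which left 19059 of 19637 barcodes. No clustering or doublet calling was used. Counts were summed per library, and 13 symbols listed more than once were added up. edgeR 4.0.16 (TMM, filterByExpr with a minimum of 10, quasi-likelihood test) was fitted to all 10 libraries and 12157 genes with Benjamini-Hochberg adjustment. A gene was called at an adjusted p below 0.05 and a fold change above 1.5. An exact permutation test of 2 against 2 cannot go below p = 0.333. CPM values are TMM-scaled. The fit was tested on simulated data. Alternatives were DESeq2 1.42.0, other scalings and filters, the study label or replicate number as a covariate, cells left out and libraries left out.

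Genes were named from the role lists and from the 3 largest called rises and falls per family and comparison averaging at least 2 in log2 CPM, and part of these are described. *Rnf144a*, *Rnf17*, *Rnf216*, *Rnf217*, *Trim55*, *Trim6* and *Trim68* were named after their values were seen. The members and lists were chosen with earlier results of these data known. RefSeq promoters (GRCm38.p6) matched 115 of 151 tested members by symbol. One member is counted but not reported here by name.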

Additional observations from a re-analysis of the deposited data

Results flagged for a closer look

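*Rnf150* and *Trim30a* were called in opposite directions against adult in different cultures, and the difference between the cultures was itself tested in the edgeR fit over all genes. *Rnf150* stood 2.44 above adult *in vitro* and at −1.14 at slice 1 day on the log2 scale, with both libraries of each culture on the same side of adult. The difference between *in vitro* and slice 1 day was 3.58 (SE 0.23, edgeR adjusted p = 6.03e-06). *Trim30a* stood at 0.95 *in vitro* and −0.64 at slice 1 day, and the difference was 1.59 (SE 0.20, edgeR adjusted p = 0.000233). Both comparisons use the same adult libraries, and the 2 genes were picked for their opposite calls, so the test of the difference is not independent of that choice. Without cells holding 2 or more proliferation UMIs the slice 1 day changes were −0.37 for *Rnf150* and −0.18 for *Trim30a*, and neither was called. As UMIs per cell both slice 1 day changes were positive, 0.41 for *Rnf150* and 0.86 for *Trim30a*, so the directions were no longer opposite. The *Trim30a* call at slice 1 day was also lost with the study label as covariate, without adult replicate 1 or without slice 1 day replicate 2.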

How the results depend on the processing

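Library size alone as the scale gave 12 rises and 58 falls *in vitro* and 7 rises at slice 3 weeks. UMIs per cell moved the median of all genes by 2.15 *in vitro*, 1.08 at slice 3 weeks, 1.19 at slice 1 week, 1.55 at slice 1 day, 1.07 for *in vitro* against slice 3 weeks and −0.46 for slice 3 weeks against slice 1 day (log2), and gave 133 rises and 2 falls, 71 and 1, 51 and 1, 93 and 3, 100 and 1, and 2 rises in these comparisons. DESeq2 gave 13 falls at slice 1 week. Without cells holding 2 or more proliferation UMIs there were 12 rises *in vitro*, 4 rises and 7 falls at slice 1 week, 35 falls at slice 1 day, 7 lower genes *in vitro* against slice 3 weeks, and 7 higher and 6 lower from slice 1 day to slice 3 weeks. Without cells holding more UMIs of other cell types than of microglia markers, an alternative chosen after seeing the data, 5 genes were lower in the last comparison. The planned limit of 3 such UMIs removed every cell of slice 1 day replicate 2 and slice 1 week replicate 1 and gave no value for those groups. Leaving out 1 library at a time gave 12 to 24 rises and 21 to 37 falls *in vitro*, 5 to 18 and 22 to 36 at slice 3 weeks, 0 to 9 and 4 to 29 at slice 1 week, 9 to 22 and 34 to 55 at slice 1 day, 11 to 22 and 4 to 15 for *in vitro* against slice 3 weeks, and 6 to 26 and 5 to 14 for slice 3 weeks against slice 1 day. The causes were not tested.

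The replicate number as a block gave 19 rises and 35 falls *in vitro*, 11 and 36 at slice 3 weeks, 4 and 21 at slice 1 week, 14 and 52 at slice 1 day, 17 and 15 for *in vitro* against slice 3 weeks and 19 and 10 for slice 3 weeks against slice 1 day. Same-numbered libraries deviated together with correlations of −0.20 to 0.26 over 5832 genes, so the numbers are not taken to pair the samples.

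Of 69 single-gene changes, leaving out 1 library ended 30 and added 2 of 690 calls and turned the sign in 0. UMIs per cell turned the sign of 27, to log2 fold changes *in vitro* *Trim34a* at 2.03, *Trim26* at 0.84, *Rnf135* at 1.02, *Rnf13* at 0.70, *Rnf103* at 0.74, *Rnf139* at 1.27, *Fbxo5* at 2.13, *Fbxl4* at 0.72, *Fbxo32* at 1.27, *Trim24* at 1.15, *Rnf2* at 1.61, *Fbxl12* at 0.49, *Rnf215* at 0.32, *Fbxo46* at 1.15 and *Fbxl20* at 1.24, at slice 3 weeks *Trim30d* at 0.026, *Trim34a* at 0.0079, *Rnf13* at 0.35, *Rnf139* at 0.33 and *Rnf145* at 0.20, at slice 1 day *Trim30a* at 0.86, *Rnf150* at 0.41, *Fbxo46* at 0.49, *Fbxo25* at 0.15, *Rnf130* at 0.51 and *Fbxw4* at 0.19, and *in vitro* against slice 3 weeks *Rnf13* at 0.35. It kept the sign but not the call in 10, namely *Trim34a* at slice 1 day at −0.30, *Trim5* at slice 1 day at −0.75, *Rnf135* at slice 3 weeks at −0.27, *Rnf167* *in vitro* at −0.0035, *Trim2* at slice 3 weeks at −0.48, *Trim47* at slice 3 weeks at −0.14, *Trim65* at slice 1 day at −0.19, *Trim65* at slice 3 weeks at −0.45, *Rnf144b* at slice 1 day at −0.67 and *Rnf216* at slice 1 day at −0.06, and it added the call in 2, *Trim25* at slice 3 weeks at 1.22 and *Rnf5* *in vitro* at 2.64. Without cells holding 2 or more proliferation UMIs *Fbxo5* at slice 3 weeks turned to −0.91. The remaining alternatives kept the call in 645 of 671 cases, ended it in 21 and added one in 4. At the depth of slice 1 week 3 counts are worth up to 7.78 CPM, which limits what can be detected there.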
